A study of Arabidopsis thaliana with 16 samples.

Results

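The regions described here are the sites at which an antibody against EIN2 enriched chromatin of Arabidopsis thaliana seedlings both in air and in ethylene. They were chosen as the peaks of the Col-0 library titled air that overlapped a peak of the Col-0 library titled ethylene by 1 bp or more on chromosomes 1 to 5. Of 841 air peaks 405 (48.2%) met this rule, and 325 of 1510 ethylene peaks (21.5%) lay across from them. Joining every air and ethylene peak that overlapped gave 316 separate loci. Members were thus chosen by the peak calls of these same Col-0 libraries, so enrichment and width in both lists are given as a description, with no test. The gene lists used below were also drawn up with results of these data known, and their counts are descriptions.

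Ethylene signalling ends at a pair of proteins that were joined in the transgene studied here. EIN2 sits in the endoplasmic reticulum membrane, and when ethylene binds its receptors the carboxyl-terminal part of EIN2, called EIN2C, is released and enters the nucleus. There it acts with the transcription factor EIN3 and its relative EIL1, and it has been linked to acetylation of histones at ethylene-responsive genes. The F-box proteins EBF1 and EBF2 remove EIN3 and are themselves encoded by EIN3 target genes.

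Whole seedlings grown in the dark at 24 °C were 3 days old and received 4 h of air, or of air that held 10 ppm ethylene. Every ChIP (chromatin immunoprecipitation) library came from seedlings carrying EIN2C-EIN3DB, which by its name links EIN2C to the DNA-binding part of EIN3. This transgene was in the Col-0 wild type (1 library titled air, 1 titled ethylene, each with an input without antibody) or in ein3-1 eil1-1, which lacks intact EIN3 and EIL1 (2 air and 2 ethylene libraries, with 1 input per treatment). RNA came from air-treated ein3-1 eil1-1 seedlings of 3 lines with 2 libraries each, carrying EIN2C-EIN3DB, its form EIN2C-EIN3DB-K245N with a substitution in the EIN3 part, or EIN2-S645A with a substitution in EIN2. The Col-0 library titled air has an agent label that reads ethylene, so the treatment of that library rests on its title. The input of the Col-0 ethylene library has a genotype label of the mutant background. Col-0 has its own EIN2, which the antibody can also bind, and no ChIP library without the transgene is among the samples. The sources used here do not give the promoter of the transgene, the number of lines per construct or whether replicates came from separate cultures.

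The Col-0 libraries kept 3743192 tags (air) and 4713282 tags (ethylene) after removal of duplicates, against 6205149 to 10515608 in ein3-1 eil1-1, whose 4 lists hold at most 275 peaks each. The redundant share was 0.61 and 0.56 in Col-0 and 0.20 to 0.30 in ein3-1 eil1-1. With 1 Col-0 library per treatment, no replicate error could be given for any Col-0 value, and the lower depth and higher redundancy of these libraries cannot be told apart from the Col-0 background.

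The shared peaks were wider than the other peaks of either list and about as enriched in air. Fold enrichment is the authors' ratio of tags at the summit to local input. In the air list the 405 members had a median fold enrichment of 3.14 (1.55 to 9.36) and a median width of 170 bp (79 to 2632 bp), where the 436 air peaks outside the set had 3.11 and 110 bp. In the ethylene list the 325 peaks across from them had a median of 3.29 (1.59 to 13.6) and 227 bp, against 3.01 and 130 bp for the 1185 other ethylene peaks. Of the 100 air peaks with the strongest p-values 92 were members, and of the 100 weakest 31.

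Several members often fell in 1 broad ethylene peak. In all, 50 ethylene peaks held more than 1 member, up to 7, and 138 members lay in them. The chaperone gene HSC70-1 held the 7 members, each at an enrichment of 2.59 to 3.44 in air, inside 1 ethylene peak of 2473 bp at 3.59. The sugar transporter gene STP1 held 5 members at 2.71 to 4.08 in air inside an ethylene peak of 3255 bp at 9.34. ASN1, which encodes a dark-inducible asparagine synthetase, also held 5, at 2.98 to 4.47 in air and 9.18 in a single ethylene peak of 3310 bp. EBF1 had 5 within 1000 bp, 4 of them in the gene, at 2.54 to 4.19 in air and 6.11 over 3131 bp in ethylene. The nitrate reductase gene NIA1 had 5 members at 2.80 to 4.33 in air and 3.71 to 4.63 in ethylene. HSC70-1, STP1, ASN1, EBF1 and NIA1 were singled out here after their values were seen.

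At the edge of the rule, the members with the smallest overlap shared 1, 2 and 3 bp with an ethylene peak. They lay in the flank of the blue-light receptor gene PHOT1 (enrichment 4.00 in air, 3.29 in ethylene), in the wall enzyme gene XYL4 (2.54 and 2.85), and in the light-harvesting gene LHCA4 (2.95 and 3.43). Just outside it, the air peaks at the peroxidase gene APX1 (2.98), at COL5 (2.91) and at NIA1 (2.95) ended 10, 16 and 17 bp from the nearest ethylene peak. In total 18 air peaks outside the set lay within 100 bp of an ethylene peak.

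Of the 10 members with the highest enrichment over both lists, 7 were more than 1000 bp wide in air. They were picked on Col-0 enrichment, which favours Col-0 values over mutant ones, so the mutant values beside them are given with no comparison. The strongest, on chromosome 5 from 8773941 to 8775518 (TAIR10), lay at AT5G25280. Its fold enrichment was 6.42 in the Col-0 air library and 10.3 in the Col-0 ethylene library. The ein3-1 eil1-1 libraries gave 2.51 and 3.66 under air and 3.99 and 3.69 under ethylene.

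The next, on chromosome 3 from 17907832 to 17910463, lay across BT2, which encodes a scaffold protein of nutrient and hormone responses, with the cysteine protease gene CEP3 in the flank. Its enrichment was 7.23 in Col-0 air, 9.07 in Col-0 ethylene and 3.12 to 3.5 over the 4 mutant libraries. EXO, a growth gene of brassinosteroid-treated plants, had the highest ethylene value of the set, 13.6 against 4.69 in air (chromosome 4, 5740717 to 5741313), and no mutant library had a peak there. UBQ10, a polyubiquitin gene with AGD13 in the flank, stood at 7.02 in air, 8.14 in ethylene and 3.07 to 4.16 in the mutant (chromosome 4, 2718357 to 2720471).

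GRP3S, a glycine-rich protein gene, stood at 7.0 in Col-0 air and 8.12 in Col-0 ethylene, with 2.62 to 3.21 in the mutant libraries. RAP2.4, a transcription factor gene of the AP2/ERF family, stood at 6.67 and 8.31 in Col-0, and at 2.63 to 3.07 in the mutant. PYK10, which encodes the main beta-glucosidase of endoplasmic reticulum bodies, had a member of 2233 bp at 6.17 in air and 8.39 in ethylene, and at 3.31 to 4.38 in the mutant.

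Like the member at EXO, the last 3 of the 10 were not called in every mutant library. The member at AT2G15880, with MEE14 in its flank, stood at 6.34 (Col-0 air) and 7.32 (Col-0 ethylene) and was called in the mutant only in air, at 2.73 and 2.18. The member with the highest air value of the set, 9.36 against 4.89 in ethylene, lay in AT4G35610 and had no peak in the mutant. The gene in its flank is CST, a receptor-like kinase gene of organ shedding. The member at DYL1, a dormancy-associated gene, stood at 5.47 and 8.34 in Col-0 and at 2.96 and 2.56 in mutant air, with no peak in mutant ethylene.

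**Figure D1:**
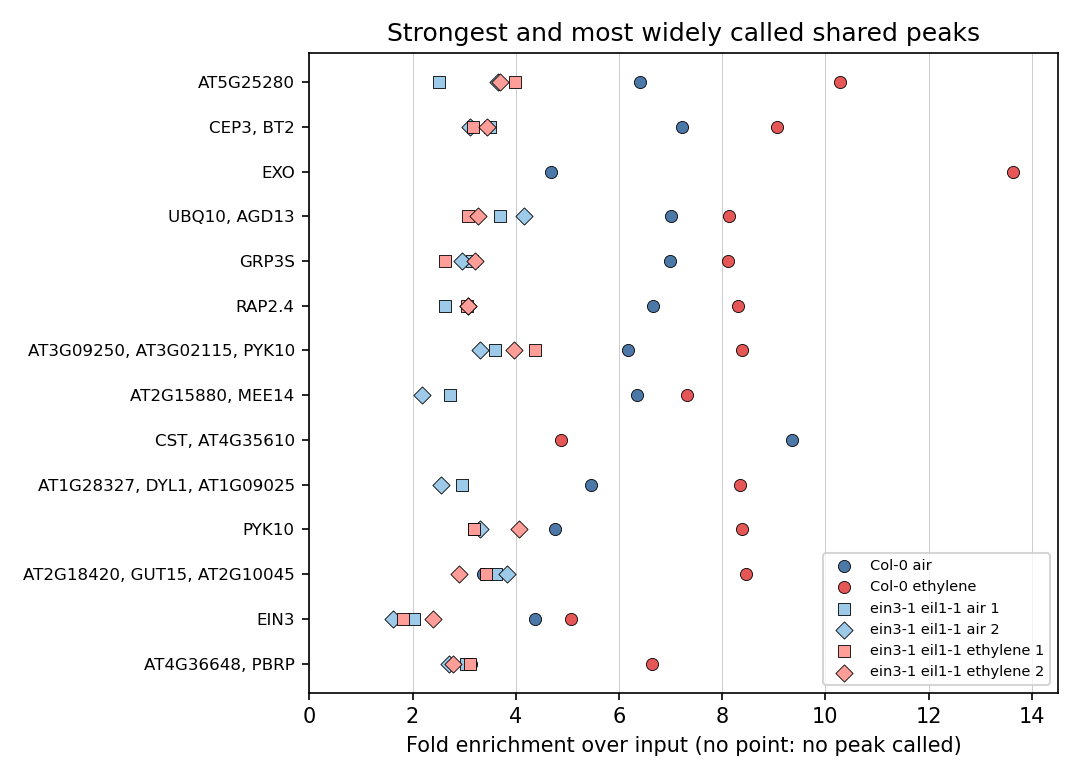
Fold enrichment over input (x axis) at the 10 shared peaks with the highest enrichment over both Col-0 lists and at the 10 most enriched in Col-0 of the 42 called in all 4 ein3-1 eil1-1 libraries, which give 14 peaks in all (y axis: nearby genes; 1 point per library). The peaks were picked on Col-0 enrichment; the ethylene value reaches 13.6 at EXO and the air value 9.36 in AT4G35610, labelled with CST.

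The members fell into 2 kinds by the depth of their input. Implied local input, computed from pileup and fold enrichment, was at least 3 times the genome mean in 1 or both Col-0 lists at 117 members (28.9%) and below that at 288. The 117 had a median enrichment of 2.45 in air and 2.83 in ethylene and a median input of 10.2 times the genome mean in air. The 288 had 3.36 and 4.16, and a median input of 1.78 times the mean. What part high input has in these calls was not tested.

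Of the 117 high-input members, 71 had a protein-coding gene within 1000 bp and 19 had no gene of any kind within it. Such a lack of genes was not particular to members. By air input alone, it held for 17.3% of high-input members and 20.7% of all high-input air peaks. Clusters of 35 of the 117 members are described next, and repeats were not annotated in the tables used. On chromosome 3, 14 members lay between 14195595 and 14208427 around the ribosomal RNA gene AT3G41768, at inputs of 7.13 to 29.5 times the mean, and 9 of the 14 were called in all 4 mutant libraries. Another 10 lay between 13534089 and 13541479 of the same chromosome at transcribed pseudogenes (AT3G32990 to AT3G33004), with an air enrichment of 1.56 to 2.74. On chromosome 2, 5 members from 1321 to 10141 surrounded the ribosomal RNA genes AT2G01010 and AT2G01020. On chromosome 5, 6 members from 11723503 to 11732668 had no gene within 1000 bp. Pileup at 9 members reached 158 in air, the highest value possible after duplicate removal, so their pileup could not rise further.

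Low-input members lay mostly in genes, as did other low-input air peaks. The summit was inside a gene at 242 of the 288, and 268 had a protein-coding gene in reach, where reach means the gene itself or 1000 bp on either side. Classed by air input alone, the summit was in a gene at 83.4% of low-input members and 75.7% of other low-input air peaks. A gene of any kind was in reach of 95.7% and 96.2%. Over all 405 members 320 summits (79.0%) were inside a gene, compared with 73.9% of the other air peaks and 66.3% of the other ethylene peaks, in a genome whose chromosomes are 64.1% genic by the gene table used. No gene was in reach of 31 members (7.65%), 19 of them with high input, against 5.28% of the other air peaks and 8.19% of the other ethylene peaks.

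Enrichment in ethylene exceeded that in air at most members, by a small amount. It was higher at 293 of 405 members (72.3%) and lower at 112, with a median log2 ratio of 0.22 (-1.12 to 1.91). Members that share a broad ethylene peak share its value, and with 1 value per locus 204 of 316 loci (64.6%) were higher in ethylene, with a median of 0.11. The ratio was at least 2-fold toward ethylene at 54 members and toward air at 1. High-input members had a median log2 ratio of 0.11 and low-input members of 0.32. The ethylene library kept more tags, and pileup scaled to the tags kept gave a median of 0.083.

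The 5 largest rises from air to ethylene lay at 4 loci, and they set an air peak against the summit of a broad ethylene peak that can lie outside it. The member with the largest rise lay at AT2G20670, at 2.52 in air and 9.47 in ethylene, but another member under the same ethylene peak stood at 4.37 in air. It was followed by a member in STP1 (2.71 and 9.34), where other members reached 4.08 in air. Next came one in AT3G26510 (2.1 and 6.85, with an input of 3.82 times the mean in air), where the other member stood at 3.84 in air. The last 2 were the only member in AT5G01210 (3.52 and 11.2), with the sulfolipid synthase gene SQD2 in its flank, and a further member in STP1 (2.95 and 9.34). These ethylene peaks were 1947 to 3255 bp wide, while the air peaks were 102 to 303 bp.

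The largest fall lay at RBCS1A. A member at this gene of a small Rubisco subunit stood at 5.73 in air and 2.63 in ethylene. The member in AT4G35610, beside CST, followed at 9.36 and 4.89, then the polyubiquitin gene UBQ3 (4.95 and 2.61), a member at AT5G41850 and its neighbours (4.58 and 2.49), and one at AT2G01008 beside the chromosome 2 ribosomal RNA genes (5.37 and 3.11), which had an input of 3.57 times the mean and was called in all 4 mutant libraries. A second member at RBCS1A stood at 6.95 in air and 4.61 in ethylene, in the same direction. A second member at UBQ3 stood at 2.39 and 3.02, in the opposite direction. Polyubiquitin and Rubisco genes have close copies that can share tags, so their single values are uncertain.

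**Figure D2:**
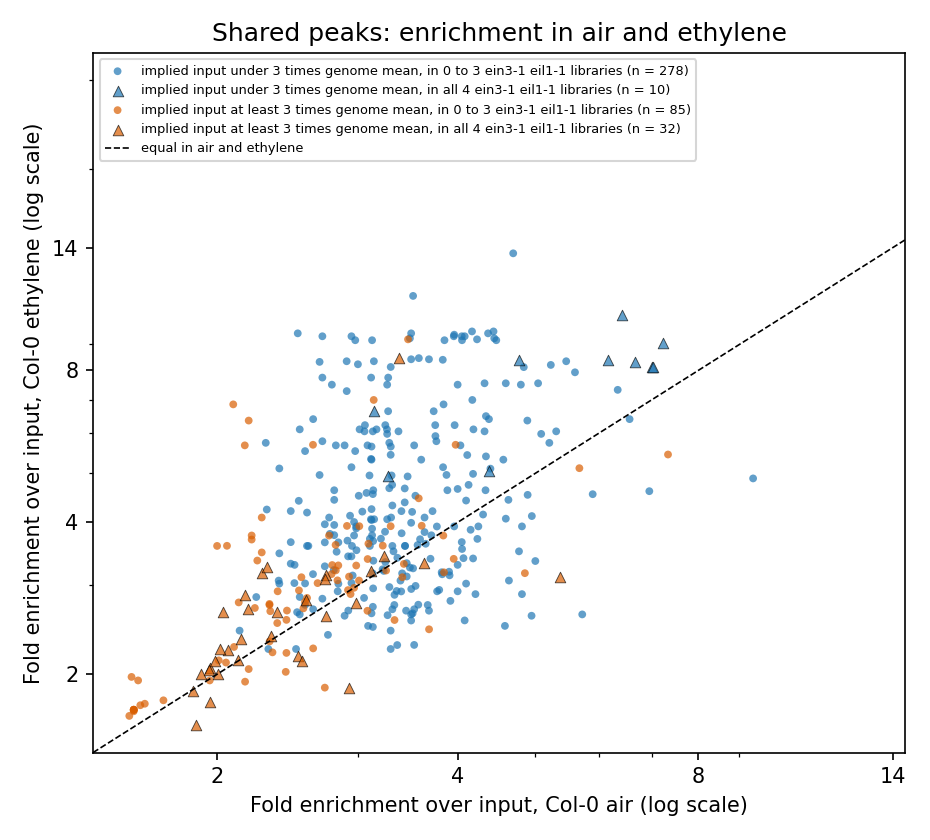
Fold enrichment over input of the 405 shared peaks in Col-0 air (x axis) and Col-0 ethylene (y axis), both on log scales; colour gives the implied input and triangles mark peaks called in all 4 ein3-1 eil1-1 libraries. Most points lie above the dashed line of equal enrichment (293 of 405), horizontal rows are members of 1 broad ethylene peak, and high-input peaks gather at low enrichment.

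The ein3-1 eil1-1 libraries took no part in the choice of members. A peak of replicate 1 and of replicate 2 in mutant air overlapped 95 members each (23.5%), where all air peaks gave 11.8% and 11.9%. In mutant ethylene the counts were 82 (20.2%) and 86 (21.2%), against 10.8% and 11.1% of all air peaks. Among all ethylene peaks these shares were 6.42%, 6.95%, 5.89% and 6.29%. At least 1 mutant library had a peak at 146 members (36.0%, exact binomial 95% interval 31.4 to 40.9, counting error only), which was 23.61% at low and 66.7% at high input and 75.24% of members with a -log10 q of at least 5 in both Col-0 lists. It had one at 15 of 436 other air peaks (3.44%) and at 33 of 1185 other ethylene peaks (2.78%). Shared peaks were stronger and more often of high input than the others, and the part of these differences in the overlap was not tested. Seen from the mutant lists, 44.8% and 42% of the air peaks and 37.1% and 38.5% of the ethylene peaks lay on a member.

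The kind of input went with the treatment in which mutant peaks were found. Of the 288 low-input members 51 (17.7%) and 50 were called in mutant air, and 15 (5.21%) and 20 (6.94%) in mutant ethylene. Of the 117 high-input members 44 (37.6%) and 45 (38.5%) were called in mutant air, and 67 (57.3%) and 66 (56.4%) in mutant ethylene. Classed by air input alone, so that all 841 air peaks can be classed too, high-input members stood at 41.3%, 40.4%, 64.4% and 63.5% in the 4 libraries (air, then ethylene), near the 36.4%, 34.7%, 60.3% and 57.9% of all high-input air peaks. Low-input members had 52, 53, 15 and 20 calls of 301, where all low-input air peaks had 7.64%, 8.06%, 2.5% and 3.19%. The 2 treatments did not overlap in either kind, in opposite directions, but 2 against 2 libraries allow no exact permutation p below 0.33 (two-sided). The air libraries kept 10073282 and 10515608 tags and the ethylene libraries 6205149 and 6325081. Both air lists were called against 1 input and both ethylene lists against another, so replicates of a treatment are not independent in input. Depth, input and treatment therefore cannot be told apart here.

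**Figure D3:**
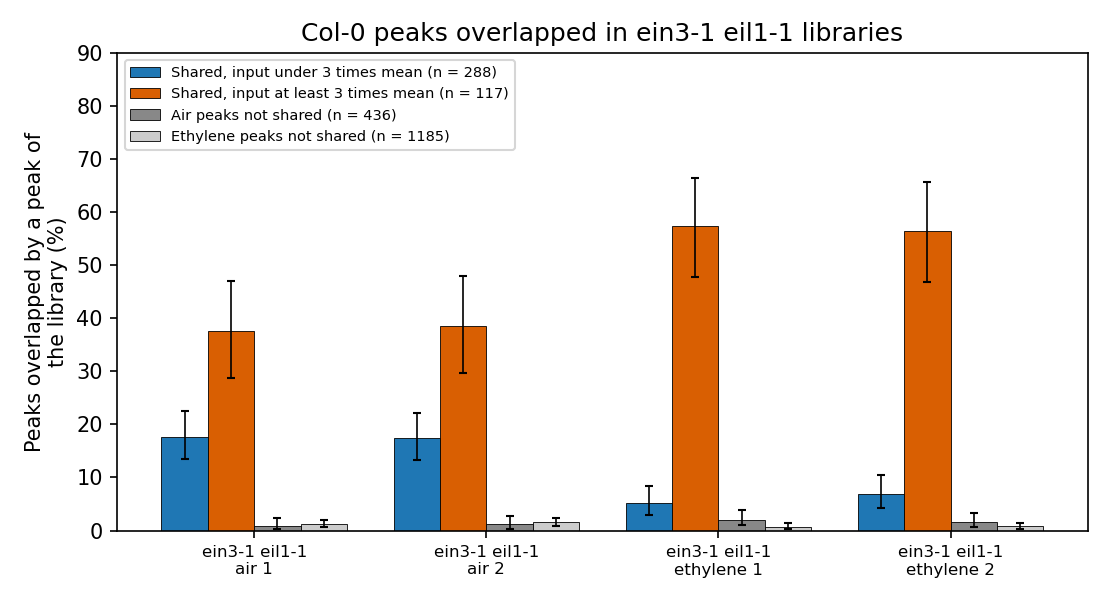
Share of Col-0 peaks (y axis, %) overlapped by a peak of each ein3-1 eil1-1 library (x axis), for shared peaks of low and high implied input and for peaks outside the set; bars are single libraries and error bars are exact binomial 95% intervals (counting error only). Low-input members reach 17.7% in air and 6.94% in ethylene, high-input members reach 57.3%, and peaks outside the set stay at or below 2.06%.

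All 4 mutant libraries had a peak at 42 members (10.4%), 32 of them of high input. The same held for 5.11% of all air peaks and 2.85% of all ethylene peaks. Classed by air input alone, it held for 30.8% of high-input members, near the 26.4% of all high-input air peaks. At low air input it held for 3.32% of members and 1.53% of all air peaks. Of the 42, the 10 of low input lay at AT5G25280, BT2, UBQ10, GRP3S, RAP2.4, PYK10 (2 members), AT4G36648, EIN3 and EIN2. Their enrichment was 3.14 to 7.23 in Col-0 air (median 6.29) and 4.93 to 10.3 in Col-0 ethylene (median 8.23). In the mutant the medians were 3.09 in both air libraries and 3.09 and 3.24 in ethylene. At the 32 of high input the medians were 2.29 (Col-0 air), 2.50 (Col-0 ethylene), 1.73 and 1.71 in mutant air, and 2.15 in both mutant ethylene libraries. The member in the noncoding RNA gene AT4G36648 stood at 3.14 and 6.64 in Col-0 and at 2.70 to 3.11 in the mutant. Its flank held PBRP, which encodes a plant relative of the general transcription factor TFIIB. The noncoding RNA gene GUT15 had a member at 3.37 in Col-0 air and 8.46 in ethylene, and at 2.89 to 3.84 in the mutant, with an input of 3.06 times the mean in air.

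EIN2 and EIN3 themselves carried members, and these are the genes from which the transgene was built. The EIN3 member (chromosome 3, 7261701 to 7262046, in the gene) stood at 4.38 in Col-0 air and 5.06 in Col-0 ethylene. In the mutant it stood at 2.03 and 1.62 in air and 1.82 and 2.39 in ethylene. EIN2 held 3 members between 791115 and 793005 of chromosome 5, at 2.17 to 3.46 in Col-0 air and 2.87 to 4.93 in ethylene. Of these, 2 were called in all 4 mutant libraries and 1 in 3, at 1.57 to 2.35. Tags from the transgene and from the resident gene cannot be told apart in these lists. Implied input was 1.53 times the genome mean at EIN3 and 2.04 to 3.31 times at EIN2.

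In all, 422 genes lay in reach of a member, 323 of them protein-coding, which is 1.18% of the 27444 protein-coding nuclear genes. The rest were 39 long noncoding RNAs, 24 pseudogenes (14 of them transcribed), 13 miscellaneous RNAs, 8 transfer RNAs, 5 other noncoding RNAs, 4 ribosomal RNAs, 3 microRNAs and 3 antisense RNAs. None of the 4 ribosomal RNA genes was near a low-input member. Neighbours on both sides of a peak are included.

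Genes of ethylene signalling and known EIN3 targets were among those at shared peaks. Of 18 genes of ethylene perception and signalling 5 (27.8%) were in reach of a member, against 1.18% of all protein-coding genes. They were EIN2, EIN3, EBF1, EBF2 and CTR1, a kinase gene that represses the pathway. The CTR1 member (3.61 in air, 3.94 in ethylene) lay in the flank and had an input of 3.06 times the mean. By the gene table used it was inside the neighbouring heat shock factor gene HSFA3. The authors' deposited loci place it between HSFA3 and CTR1. Without EIN2 and EIN3, the sources of the transgene, and CTR1, the members in genes of this list were those of EBF1 and EBF2, 2 of 18. No receptor gene was in reach. EBF2 held 3 members at 2.71 to 3.27 in air inside 1 ethylene peak of 3096 bp at 7.74.

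The list of 32 known targets of EIN3 and other genes induced by ethylene had 7 (21.9%) in reach, EBF2 included. TEM1, which encodes a repressor of flowering of the RAV family, stood at 2.91 in air and 7.28 in ethylene. Its relatives RAV2 and RAV1 stood at 4.15 and 3.87, and at 2.77 and 3.80. The apical hook gene HLS1 stood at 2.93 and 4.12, the transcription factor gene ERF5 at 3.68 and 2.67, and DREB1A, a cold regulator also called CBF3, at 2.54 and 2.63. Only ERF5 among these 7 genes had a member called in the mutant, in 1 ethylene library at 2.46. The members at EBF1 and CTR1 were likewise called in none of the 4 mutant libraries, unlike those at EIN2 and EIN3.

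The other lists were in reach by 0 to 21.1% of their genes. Photosynthesis genes were 5 of 29 (17.2%): LHB1B2, CAB1, LHCA4, RBCS1A and RBCS2B. LHB1B2, a light-harvesting gene, stood at 5.0 in air and 3.35 in ethylene, and CAB1 at 3.95 and 3.39 with an input of 3.57 times the mean. Auxin genes were 4 of 26 (15.4%), namely the auxin efflux carrier genes PIN3 (3.04 and 4.20) and PIN7 (3.08 and 4.58), the repressor gene IAA2 (2.71 and 2.82) and the conjugating enzyme gene GH3.3 (3.9 and 3.19). Genes of cytosolic translation, ubiquitin, actin and tubulin were 4 of 19 (21.1%), all polyubiquitin genes: UBQ3, UBQ4, UBQ10 and UBQ11. Heat shock genes were 1 of 10 (HSC70-1), and histone acetylation genes 1 of 22, ELO3, an Elongator subunit gene that stood at 3.5 and 3.99. Ethylene biosynthesis (17 genes), histone (15), cell wall loosening (16) and seed storage genes (11) had no member in reach.

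In RNA, genes at shared peaks were listed as differing from Col more often than protein-coding genes in general. The same held for genes at air and ethylene peaks outside the set. The authors' deposited tables list a gene when its FPKM (fragments per kilobase, scaled to library size) differed at least 2-fold with a q-value under 0.05. Their names also point to a lower limit on expression, which was not checked here. They hold 1 pooled value per line, so no replicate error can be given. In EIN2C-EIN3DB 31.6% of the 323 protein-coding genes at shared peaks were listed, against 19.6% overall; the other lines had 24.1% (K245N, 12.7% overall) and 39% (S645A, 25.7% overall) in the authors' deposited tables. In EIN2C-EIN3DB 66 of the 323 protein-coding genes (20.4%) were lower and 36 (11.1%) higher, against 9.7% and 9.93% of all protein-coding genes in the authors' deposited table. In EIN2C-EIN3DB-K245N 39 (12.1%) were lower and 39 higher, against 6.33% and 6.41%. In EIN2-S645A 69 (21.4%) were lower and 57 (17.65%) higher, against 13.9% and 11.8%. At a fold of 4, overall shares higher and lower were 2.88% and 1.67% in EIN2C-EIN3DB, 1.59% and 1.27% in K245N and 5.23% and 4.18% in S645A, beside 4.33% and 4.64%, 4.64% and 2.79%, and 8.05% and 6.19% at shared peaks in the authors' deposited tables. The 3 tables share the same Col values, and no Col RNA library is among the samples, so the folds cannot separate transgene from mutant background or from the unstated treatment of Col.

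Among listed genes, those at shared peaks had higher median FPKM than listed protein-coding genes in general. Listed genes at shared peaks had a median of 36.8, 71.0 and 53.3 FPKM in EIN2C-EIN3DB, K245N and S645A, against 12.5, 11.7 and 12.3 FPKM over all listed protein-coding genes. FPKM is known for listed genes only, and the general shares cover all protein-coding genes, expressed in seedlings or not. The part of expression in the difference in listed shares was not tested. Genes at peaks outside the set were also listed often. In EIN2C-EIN3DB 15.7% of genes at other air peaks and 19.5% of genes at other ethylene peaks were lower. With low-input members alone, 57 of 267 genes (21.3%) were lower in EIN2C-EIN3DB and 25 (9.36%) higher. The median log2 ratio of listed genes at shared peaks was -1.17 in EIN2C-EIN3DB, where that of all listed protein-coding genes was 1.01, -0.04 against 1.01 in K245N, and -1.10 in both for S645A. Because listed genes lie beyond a fold of 2 on either side, these medians mainly reflect the split between higher and lower.

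**Figure D4:**
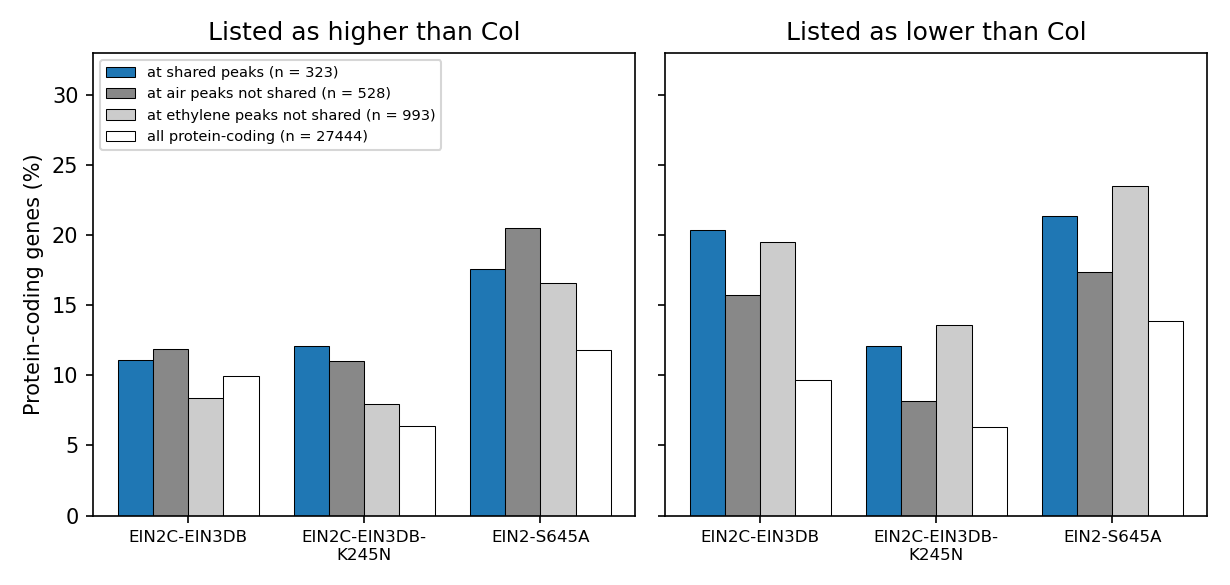
Share of protein-coding genes (y axis, %) that the authors' deposited tables list as higher (left) or lower (right) than Col in 3 lines (x axis), for genes at shared peaks, at peaks outside the set and overall. Genes at shared peaks are lower at 20.4%, 12.1% and 21.4%, above the 9.7%, 6.33% and 13.9% of all protein-coding genes, and genes at ethylene peaks outside the set reach similar shares. Bars are counts over genes in single pooled tables, without error bars.

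Of the 323 genes, 48 were listed in all 3 tables, 26 lower in each and 22 higher in each, and 158 were listed in none. No such joint count over all protein-coding genes is given here. The 3 lines also share the mutant background and the Col values, so these counts are not read as a trait of genes at shared peaks. A gene that is not listed may still differ, since the tables hold called genes only.

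Genes of ethylene signalling and response at shared peaks were lower wherever they were listed. In the authors' deposited tables EBF2 had a log2 ratio of -3.30 in EIN2C-EIN3DB, -3.30 in K245N and -1.57 in S645A, with 16.9, 12.8 and 43.8 FPKM in the lines. HLS1, in the authors' deposited tables, had log2 -2.88, -3.57 and -2.54, and CTR1 at -1.26, -1.16 and -1.59. EBF1 had a log2 ratio of -1.34 and -1.88 in EIN2C-EIN3DB and K245N in the authors' deposited tables and was not listed in S645A. RAV1 had a log2 ratio of -1.61 and -1.14 in the same 2 lines, TEM1 at -1.17 in EIN2C-EIN3DB and RAV2 at -1.09 in K245N in the authors' deposited tables. EIN3 had a log2 ratio of -2.06 in EIN2C-EIN3DB and -3.97 in S645A, and EIN2 at -1.44 in EIN2C-EIN3DB in the authors' deposited tables. All 3 lines are ein3-1 eil1-1, so EIN3 is itself mutated in them. The transgenes hold EIN2 or EIN3 sequence, which can add reads to these genes. Both genes are among the 18 counted below. ERF5 and DREB1A were not listed. Over the whole signalling list 9, 8 and 11 of 18 genes were lower and 0 higher in the 3 lines, and of the 13 away from shared peaks 4, 5 and 8 were lower, where 9.7%, 6.33% and 13.9% of all protein-coding genes were. Over the 32 EIN3 targets and induced genes 14, 13 and 9 were lower and 5, 2 and 3 higher in the authors' deposited tables, and of the 25 away from shared peaks 10, 9 and 7 were lower and 5, 2 and 3 higher.

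The other lists split differently. Of the photosynthesis genes at shared peaks, LHB1B2 was higher by log2 5.97, 6.18 and 7.48, LHCA4 by 1.85, 2.13 and 3.32, and CAB1 by 2.76, 2.70 and 3.65 in the authors' deposited tables. RBCS2B had a log2 ratio of -1.24 in EIN2C-EIN3DB in the authors' deposited table and RBCS1A was not listed. Over the whole photosynthesis list 14, 15 and 20 of 29 genes were higher and 4, 3 and 1 lower in EIN2C-EIN3DB, K245N and S645A. Of the 24 away from shared peaks 11, 12 and 17 were higher and 3, 3 and 1 lower. Among all protein-coding genes 9.93%, 6.41% and 11.8% were higher in the authors' deposited tables. Among auxin genes IAA2 had a log2 ratio of -1.33 and PIN7 at -1.22 in EIN2C-EIN3DB, and GH3.3 at -1.92 in S645A in the authors' deposited tables. Of the 22 auxin genes away from shared peaks 7, 0 and 4 were lower and 1, 3 and 4 higher in the 3 lines. Among all protein-coding genes 9.7%, 6.33% and 13.9% were lower. HSC70-1 had a log2 ratio of -1.11 in K245N and -1.13 in S645A, and UBQ3 at -1.53 in S645A in the authors' deposited tables. Of the 9 heat shock genes away from shared peaks 5, 2 and 4 were lower and 0 higher in the 3 lines. Of the 15 translation, ubiquitin, actin and tubulin genes away from them 3, 2 and 3 were higher and 0 lower. PIN3, ELO3, UBQ4, UBQ10 and UBQ11 were in no table.

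**Figure D5:**
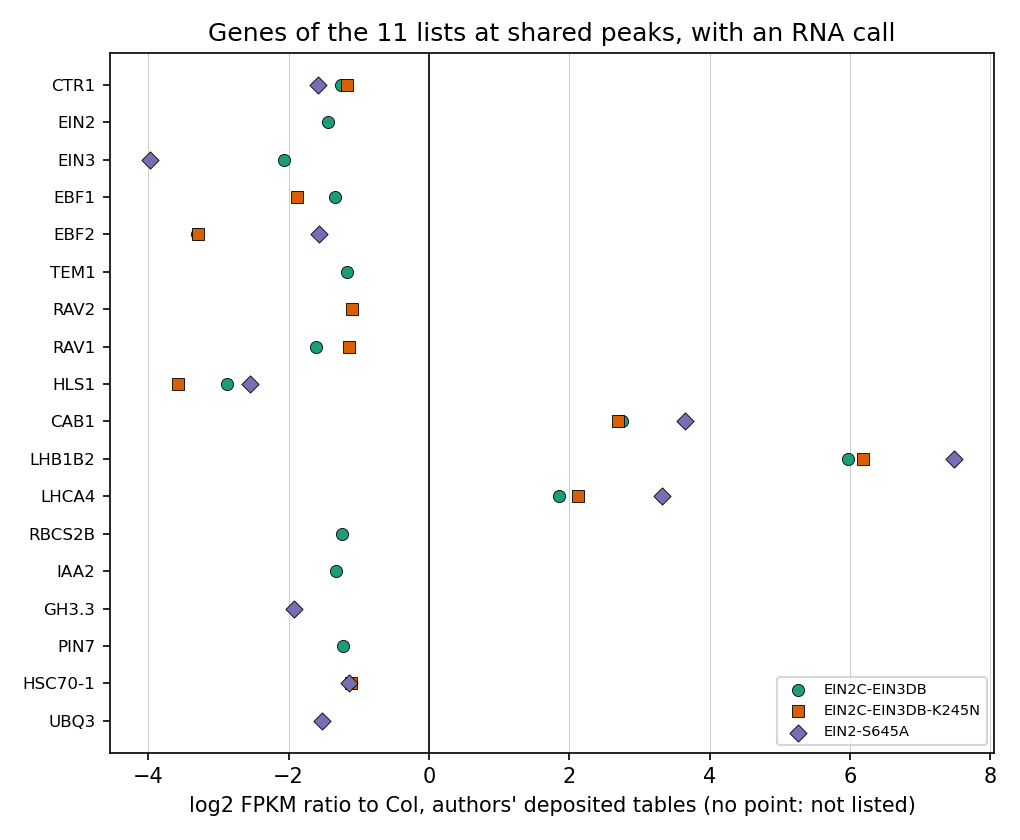
log2 FPKM ratio to Col in the authors' deposited tables (x axis) for the 18 genes of the lists at shared peaks that are listed in at least 1 line (y axis); colour and shape give the line, and a missing point means not listed. The ethylene genes from CTR1 to HLS1 lie left of 0, and LHB1B2, LHCA4 and CAB1 lie right of it.

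Beyond the lists, the largest differences that all 3 tables give in 1 direction were as follows. AT5G26150 had 4 members in reach, 2 of them in the gene, at 4.32 to 5.04 in air and 7.54 to 8.12 in ethylene. A mutant library had a peak at 3 of these members. The log2 ratio of AT5G26150 was -3.82, -4.00 and -3.02 in EIN2C-EIN3DB, K245N and S645A in the authors' deposited tables. IAGLU, which encodes an auxin glucosyltransferase, had a log2 ratio of -2.75, -3.56 and -3.15 there, with a member at 4.43 in air and 9.55 in ethylene. HSFA3, the heat shock factor gene beside CTR1, had a log2 ratio of -2.56, -3.71 and -2.47 in the authors' deposited tables. AT5G57250, with 4 members in reach and 2 of them in the gene, had a log2 ratio of -2.49, -2.55 and -3.59 in the authors' deposited tables. AT5G62280, with its only member in the flank, had -3.09, -2.91 and -2.02 there. EXO, the gene with the strongest ethylene peak, had a log2 ratio of -1.67, -2.84 and -2.66 in the authors' deposited tables, with 135, 45.2 and 52.8 FPKM.

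Among the highest, the membrane protein gene RCI2A had a log2 ratio of 2.72, 3.55 and 4.73 in the authors' deposited tables, with a member in its flank at 2.96 in air and 3.14 in ethylene. AT3G02480 had a log2 ratio of 4.41, 2.46 and 2.69, and CCL at 2.68, 2.62 and 2.64 in the authors' deposited tables. The only member in reach of AT3G02480 lay in its flank, in the gene SAMDC, which was in no RNA table. AT2G01021, AT2G07739 and AT3G20362 are listed at 0 in Col and had 7902, 100 and 58.8 FPKM in EIN2C-EIN3DB in the authors' deposited table, so no fold is given. These 3 genes lie at high-input members, at 15.8 times the mean (AT2G01021) and up to 40.2 times (the other two), the first beside ribosomal RNA genes.

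The genes at the strongest peaks gave no single direction. EXO was lower in all 3 lines and AT2G15880 was too, at log2 -1.11, -1.54 and -2.37 in the authors' deposited tables. BT2 had a log2 ratio of 1.32 and 1.06 in EIN2C-EIN3DB and K245N, and GRP3S at 2.48 in S645A in the authors' deposited tables. AT5G25280 and PYK10 had a log2 ratio of -1.44 and -1.26 in S645A and CST, beside its peak, at -1.03 and -1.11 in EIN2C-EIN3DB and S645A in the authors' deposited tables. UBQ10, RAP2.4, DYL1 and MEE14 were in no table.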

How the data were processed

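Members and gene lists were chosen with earlier results of these data known. The authors called peaks library by library against input, using MACS2 (2.1.0.20150603; p limit 0.001; 1 tag kept per position), per the file headers. The deposited lists hold a pileup signal, a fold enrichment (ratio), widths and -log10 p and q values, per the file headers; a comment there says q was not calculated, yet the column holds values and was read as named. The build is TAIR10, per the submitters' processing notes. The notes also name BWA, with no role given, while the file headers show a folder named for bowtie. The deposited FPKM, log2 folds, p-values and q-values came from Cuffdiff 2.2.1, per the submitters' processing notes, pooled by line. The 3 Col value columns were not used, and K245N folds were turned to line over Col.

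A peak's ethylene value is that of the most enriched overlapping peak. Implied input is pileup plus 1 over fold enrichment, minus 1; the genome mean is tags kept times fragment length over 119000000 bp. Genes came from a TAIR10.1 table with no strand column, whose coordinates are not printed; neighbours were found with it at a flank of 1000 bp. Python 3.11.15, pandas 2.3.3 and SciPy 1.17.1 were used, and overlap code was tested on simulated intervals. Values with 1 library or 1 pooled table per group allow no test, so none is given. Exact binomial (Clopper-Pearson) intervals are 95%. The genes named were the 10 members highest in both lists, 10 called in all 4 mutant libraries (of 42 such, those most enriched in Col-0), the 5 largest rises and falls, all list genes, and the 8 highest and lowest genes listed in 3 tables. Of 244 list entries, 209 genes were matched by symbol. Promoter motifs were planned and not run, since no genome sequence was at hand.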

Additional observations from a re-analysis of the deposited data

Results flagged for a closer look

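The member at UBQ10 and 1 of the 2 members at GUT15 moved in opposite directions with treatment in the 2 backgrounds, and the difference was not tested. A rise in Col-0 is not particular to them. It was seen at 31 of the 42 members called in all 4 mutant libraries, and the median log2 ratio of all members was 0.22. How many other members moved in opposite directions is not given here. At UBQ10 the enrichment rose from 7.02 in Col-0 air to 8.14 in Col-0 ethylene (log2 0.21), while in ein3-1 eil1-1 it was 3.70 and 4.16 in air and 3.07 and 3.27 in ethylene. At GUT15 it was 3.37 in Col-0 air and 8.46 in Col-0 ethylene (log2 1.33), and 3.63 and 3.84 in mutant air against 3.43 and 2.89 in mutant ethylene. This GUT15 member had an air input of 3.06 times the mean, and its ethylene value is that of a broad peak of 2153 bp. The other GUT15 member, under the same ethylene peak, stood at 3.58 in Col-0 air. In the mutant it was called only in air replicate 2, at 2.59. UBQ10 is a polyubiquitin gene, whose close copies can share tags, so its values are uncertain. Col-0 has 1 library per treatment, and the mutant ethylene libraries kept fewer tags than the mutant air libraries.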

How the results depend on the processing

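The set shrank from 405 to 233 members when the ethylene summit had to lie in the air peak, to 105 at a -log10 q of at least 5 in both lists and to 56 at an enrichment of at least 4 in both, and was 380 with an overlap of at least 0.5 of the shorter peak. Members found in any mutant library were 36.05%, and 75.24% at the q limit, 23.61% at low input, and 31.11% without replicate 1 or without replicate 2. Genes in reach were 422, 255 without a flank and 121 at the q limit. The median ethylene to air log2 ratio was 0.53 by -log10 p, 0.083 by pileup scaled to tags kept and 0.11 with 1 value per locus, an alternative chosen after seeing the data. At a fold of 4 the shares of genes higher and lower were 4.33% and 4.64% in EIN2C-EIN3DB, 4.64% and 2.79% in K245N and 8.05% and 6.19% in S645A (overall 2.88% and 1.67%, 1.59% and 1.27%, and 5.23% and 4.18%), and at the q limit 27.16% were lower in S645A (overall 13.9%). Each other alternative run gave a value within 1.5 times the reported one. No paired analysis was possible because the compared Col-0 groups have 1 library each and the lists hold called features only.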
